A study of Homo sapiens with 6 samples.

Results

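DNA replication and S-phase genes are described here in HEK293 cells with stable overexpression of SFXN2, a mitochondrial sideroflexin, and in wild-type HEK293 cells. The set was given as a list of 47 gene symbols and holds the replicative helicase, the factors that load and fire it, the polymerases and their accessory proteins, the makers of deoxynucleotides and regulators of S-phase entry. All 47 were found by symbol among the 60564 genes of the deposited count table, and all 47 passed the filter on low counts that left 18797 genes to test. They were matched by symbol, with no threshold on a measured value.

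Replication begins at origins, where the origin recognition complex, CDC6 and CDT1 load the MCM helicase onto DNA before S phase. The kinase CDC7 and cyclin-dependent kinases then join CDC45 and the GINS complex to the helicase, and DNA polymerases copy the separated strands on the sliding clamp PCNA. Many of these genes are transcribed under E2F factors, which the retinoblastoma protein restrains until cells commit to S phase. HEK293 is a human embryonic kidney line transformed with adenovirus DNA, whose early proteins bind the retinoblastoma protein and free E2F.

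The study's title concerns SFXN2 as a substrate of the ubiquitin ligase Parkin, and its RNA sequencing set SFXN2-overexpressing cells against wild-type cells. There were 3 libraries of SFXN2 overexpression (OE) and 3 of wild type (WT), each numbered 1 to 3, all from total RNA depleted of ribosomal RNA. No further allele, treatment or time was given for either group, nor whether the overexpressing line was 1 clone or whether the wild-type cells carried an empty vector. The libraries were titled NC_HA for WT and OE_HA for OE, each with its number. The titles themselves do not spell out NC or HA. The labels did not say that libraries came from separate cultures, so p-values measure the spread between these libraries, which may be technical.

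SFXN2 itself stood at 1523, 1909 and 1771 CPM (a count as a share of its library's TMM-scaled total) in OE libraries 1 to 3, against 36.6, 27.8 and 44.7 CPM in WT libraries 1 to 3. Its log2 fold change of OE over WT was 5.58 (SE 0.20, Benjamini-Hochberg adjusted p = 2.32e-06, quasi-likelihood test of edgeR), so every library matched its label. Libraries held 40043248 to 59963713 counts in OE and 32121527 to 41217867 in WT. The 47 genes took 0.590% to 0.617% of all counts in OE and 0.598% to 0.634% in WT. Of the kidney and HEK293 markers, PAX2 ranged from 4.11 to 6.51 CPM and the neurofilament NEFL from 85.5 to 117.5 CPM over the 6 libraries. The leukocyte markers PTPRC and CD3E reached at most 0.164 and 0.0729 CPM. Of the fibroblast markers, the collagen COL1A1 ranged from 10.8 to 18.6 CPM and LUM from 0.283 to 1.30 CPM, while COL1A2, DCN and PDGFRB reached at most 0.0546, 0.232 and 0.509 CPM. The proliferation marker MKI67 stood at 1172, 1092 and 1023 CPM in OE against 1320, 1032 and 1128 CPM in WT, and the groups overlapped.

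No replication gene passed an adjusted p of 0.05 between SFXN2 OE and WT. With Benjamini-Hochberg adjusted p-values from the quasi-likelihood test of edgeR, 0 of 47 passed, beside 2 of 18797 genes in all (0.0106%), and the lowest adjusted p among the 47 was 0.93. DESeq2 and limma-voom also called 0 of the 47, beside 0.0479% and 0.016% of all tested genes. At an unadjusted p under 0.05, 4 of the 47 had lower values in OE, namely POLD1, LIG1, MCM5 and POLE, which is 8.51% beside 2.38% of all tested genes. None of the 47 had a higher value at that level, beside 2.38% of all genes. That count of 4 became 0 without OE library 2, without OE library 3 or without WT library 2, and 1 without WT library 3, with LIG1 the gene left. In those runs, in that order, 1.90%, 1.59%, 4.90% and 2.88% of all tested genes were at that level in either direction. With all libraries in, that share was 4.76%. Without OE library 1, LIG1, MCM2 and MCM5 were lower and CDC7 and GINS3 higher in OE at that level. Without WT library 1, LIG1, POLD1 and POLE were lower and RRM2 higher. Of all tested genes 11.8% and 7.73% were at that level in these runs, respectively, in either direction.

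Differences were small in both directions. The 47 log2 fold changes of OE over WT ran from -0.29 in POLD1 to 0.23 in RRM2, 28 of them negative and 19 positive, with a median of -0.018 beside 0.0060 over all tested genes. That median was 0.0098 without OE library 2 and 0.0073 without WT library 1, and -0.074 without WT library 2 or -0.064 without OE library 1. The 95% confidence interval of every one of the 47 lay within 1 on the log2 scale on either side of zero, as did 72.6% of intervals over all tested genes. For 44 of the 47 it lay within 0.5, beside 44.4% over all tested genes, and the exceptions were POLD1, RRM2 and CCNE2. The median SE was 0.107 for the 47 and 0.174 for all tested genes. In mean level the 47 ran from 17.7 CPM in CCNE2 to 639 CPM in MCM7. In 5 genes every OE library lay below every WT library (POLD1, LIG1, MCM5, POLE and E2F1), which is 10.6% beside 4.25% of all tested genes. In 0 of the 47 did every OE library lie above every WT library, beside 4.91% of all tested genes.

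**Figure D1:**
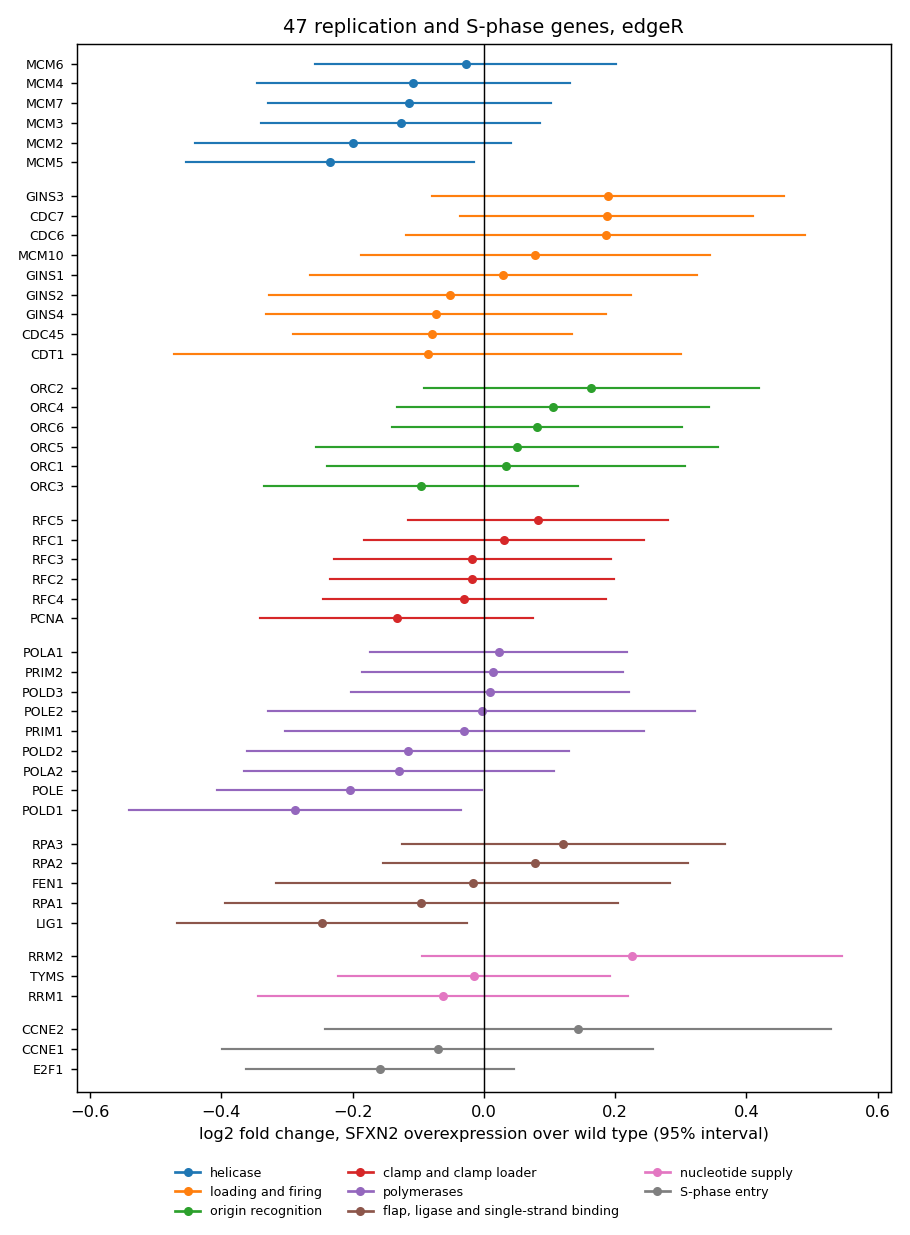
Log2 fold change of SFXN2 OE over WT for each of the 47 replication genes, arranged by role, with points for the estimate and bars for the 95% confidence interval from edgeR (3 libraries per group). All estimates lie between -0.29 and 0.23, and the intervals of POLD1, LIG1, MCM5 and POLE lie below zero before adjustment for multiple testing.

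Promoter sequence was looked at because many replication genes share E2F sites. RefSeq promoters on GRCh38.p14, running from 250 bases before the transcription start to 50 after it, were matched for 40 of the 47 genes. They were searched on both strands for 7 E2F-type letter strings (TTTCGCGC, TTTGGCGC, TTTCCCGC, TTTGCCGC, TTCCCGCC, TTGGCGCC and GCGGGAAA, of which the last is the reverse complement of TTTCCCGC and the strings may overlap each other) and for CCAAT. At least 1 E2F-type string stood in 25 of the 40 promoters (62.5%), beside 8.97% of the 17101 promoters of tested genes. The share was 6.26% over all 35116 promoters of the RefSeq promoter set, whether or not their genes were in the count table. CCAAT stood in 23 of the 40 (57.5%), beside 34.3% of promoters of tested genes. The median log2 fold change of OE over WT was -0.052 for the 25 genes with an E2F-type string and 0.034 for the 15 without. The median of the 15 was -0.038 without WT library 2, -0.017 without OE library 3, 0.097 without WT library 1, 0.055 without OE library 2 and 0.0022 with the correction for GC content described further on. That of the 25 stayed negative with each library left out, from -0.079 without WT library 2 to -0.019 without WT library 1, and was -0.024 without OE library 2. With the same GC correction the median of the 25 was -0.067. Of the 25, 20 were negative and 5 positive both with and without that correction.

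The following 6 promoters belong to genes with a low value in OE (POLD1, LIG1, POLE and MCM2) and to genes at the upper end of the range (CDC6 and RRM2). They show that letters of both kinds occur at either end of the range, and each is printed 5′ to 3′ on the gene's own strand with E2F-type strings in capitals. The windows are chr19:50384073-50384372 on the plus strand for POLD1, chr19:48170295-48170594 on the minus strand for LIG1, chr12:132687293-132687592 on the minus strand for POLE, chr3:127598161-127598460 on the plus strand for MCM2, chr17:40287629-40287928 on the plus strand for CDC6 and chr2:10122489-10122788 on the plus strand for RRM2.
POLD1: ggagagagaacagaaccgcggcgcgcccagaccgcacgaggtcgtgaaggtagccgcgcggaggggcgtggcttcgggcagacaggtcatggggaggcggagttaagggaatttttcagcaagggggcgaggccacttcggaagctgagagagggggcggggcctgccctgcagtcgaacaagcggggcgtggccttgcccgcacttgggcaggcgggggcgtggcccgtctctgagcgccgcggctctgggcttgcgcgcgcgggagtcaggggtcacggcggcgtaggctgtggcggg
LIG1: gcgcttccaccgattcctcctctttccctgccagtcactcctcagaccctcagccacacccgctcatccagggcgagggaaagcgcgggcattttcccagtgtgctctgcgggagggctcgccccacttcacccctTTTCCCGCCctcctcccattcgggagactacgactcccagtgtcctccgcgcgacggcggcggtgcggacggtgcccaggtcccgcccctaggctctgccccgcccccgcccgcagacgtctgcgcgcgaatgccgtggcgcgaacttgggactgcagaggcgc
POLE: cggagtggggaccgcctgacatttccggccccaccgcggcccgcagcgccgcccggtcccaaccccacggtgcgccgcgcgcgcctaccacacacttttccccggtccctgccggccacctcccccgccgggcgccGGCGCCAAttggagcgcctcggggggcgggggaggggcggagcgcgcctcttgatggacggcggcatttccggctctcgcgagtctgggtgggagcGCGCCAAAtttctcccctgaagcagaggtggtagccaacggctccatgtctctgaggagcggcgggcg
MCM2: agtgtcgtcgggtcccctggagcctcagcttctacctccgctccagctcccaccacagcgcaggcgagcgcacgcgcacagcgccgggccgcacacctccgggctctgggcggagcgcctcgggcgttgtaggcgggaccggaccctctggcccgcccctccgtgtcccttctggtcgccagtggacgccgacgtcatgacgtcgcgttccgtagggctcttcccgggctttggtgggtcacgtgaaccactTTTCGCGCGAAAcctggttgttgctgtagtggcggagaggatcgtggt
CDC6: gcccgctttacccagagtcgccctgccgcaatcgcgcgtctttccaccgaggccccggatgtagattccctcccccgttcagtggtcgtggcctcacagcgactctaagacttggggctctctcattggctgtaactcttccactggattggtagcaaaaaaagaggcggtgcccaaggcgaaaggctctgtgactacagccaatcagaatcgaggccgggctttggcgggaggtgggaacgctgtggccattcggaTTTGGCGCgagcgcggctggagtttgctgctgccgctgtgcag
RRM2: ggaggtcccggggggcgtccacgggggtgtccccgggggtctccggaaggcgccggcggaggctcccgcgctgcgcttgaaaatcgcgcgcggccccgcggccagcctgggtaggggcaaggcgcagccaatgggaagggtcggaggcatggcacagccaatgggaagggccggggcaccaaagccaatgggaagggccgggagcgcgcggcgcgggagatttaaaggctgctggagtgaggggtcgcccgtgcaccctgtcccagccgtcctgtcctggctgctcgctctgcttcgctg

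POLE held 2 separate stretches of E2F-type letters, while LIG1, MCM2 and CDC6 held 1 each. POLD1 and RRM2 held none in this window. CDC6 and RRM2 held 3 CCAAT matches each, whereas POLD1, LIG1 and MCM2 held none. POLE held 2, which overlap on opposite strands at a single place (CCAATTGG). POLD1, with the lowest log2 fold change of the 47, and RRM2, with the highest, both lacked these E2F letters.

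The helicase subunits MCM2 to MCM7 form the ring that unwinds DNA, and all 6 log2 fold changes were negative, from -0.23 in MCM5 to -0.028 in MCM6 with a median of -0.12. None passed the adjusted threshold. With single libraries left out the median ran from -0.19 without OE library 1 to -0.078 without OE library 2, where MCM6 turned positive. MCM5 (ENSG00000100297, chromosome 22, 35400063 to 35425430, GRCh38) stood at 189.6, 165.2 and 164.8 CPM in OE, against 201.0, 213.8 and 196.3 CPM in WT. Every OE library was below every WT library, with OE library 1 nearest to WT. The means were 173.2 ± 14.2 CPM in OE and 203.7 ± 9.06 CPM in WT (SD, n = 3 each), a log2 fold change of -0.23 (SE 0.098, 95% confidence interval -0.45 to -0.01, unadjusted p = 0.0387 and Benjamini-Hochberg adjusted p = 0.93, quasi-likelihood test of edgeR).

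MCM2, which binds histones as well as its ring neighbours, stood at 222.7, 175.6 and 193.1 CPM in OE and at 217.3, 231.6 and 230.0 CPM in WT. OE library 1 lay above WT library 1, so the groups overlapped, and the log2 fold change was -0.20 (unadjusted p = 0.0951 by edgeR). MCM3 stood at 519.3, 461.6 and 469.4 CPM in OE and at 531.5, 550.0 and 502.0 CPM in WT, a log2 fold change of -0.13. MCM4 stood at 340.8, 275.0 and 291.1 CPM in OE and at 330.6, 308.4 and 338.2 CPM in WT, a log2 fold change of -0.11. In both, OE libraries 2 and 3 lay below all WT libraries and OE library 1 lay among or above them. MCM6 stood at 263.5, 216.1 and 230.4 CPM in OE and at 250.1, 231.4 and 242.3 CPM in WT, a log2 fold change of -0.028. MCM7, the most abundant of the 6, stood at 648.9, 561.4 and 632.3 CPM in OE and at 656.8, 647.9 and 688.8 CPM in WT, a log2 fold change of -0.11. OE library 2 held the lowest value of all 6 libraries for every helicase subunit except MCM5, where OE library 3 was lowest at a value close to it.

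**Figure D2:**
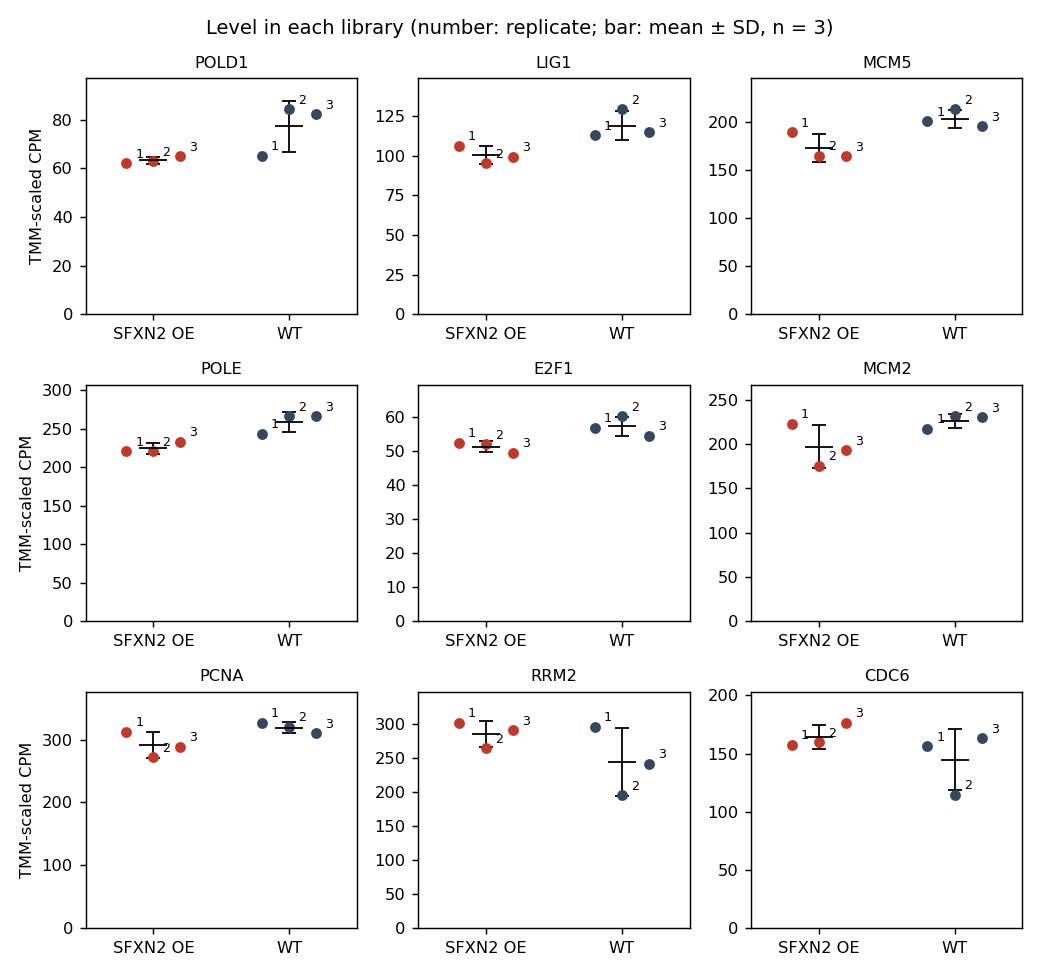
Levels in TMM-scaled CPM in each library for 9 of the replication genes, with SFXN2 OE left of WT; points are libraries, numbered by replicate, and the bars give the mean and SD (n = 3). OE lies wholly below WT for POLD1, LIG1, MCM5, POLE and E2F1, and the groups overlap for MCM2, PCNA, RRM2 and CDC6.

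Origin recognition genes, whose products mark the sites where the helicase is loaded, did not pass the test in any member. Of ORC1 to ORC6, 5 had a positive log2 fold change and 1 a negative one, with a median of 0.066. Without WT library 2 there were 3 of each sign with a median of -0.021, without OE library 3 also 3 of each sign with a median of 0.0033, and without WT library 1 the median was 0.13. ORC2 stood at 75.1, 67.9 and 71.5 CPM in OE, against 68.5, 54.1 and 68.9 CPM in WT. WT library 2 was the low value, and OE library 2 lay below both other WT libraries. The log2 fold change was 0.16 (unadjusted p = 0.182 by edgeR), 0.056 without WT library 2 and 0.22 without WT library 3. ORC3, the negative member, had a log2 fold change of -0.096 and means of 73.6 ± 5.15 CPM in OE and 78.6 ± 8.17 CPM in WT (SD, n = 3 each). ORC4, ORC6, ORC5 and ORC1 had log2 fold changes of 0.11, 0.081, 0.051 and 0.034. WT library 2 held the lowest value for 5 of the 6 genes, all but ORC3.

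Loading and firing factors were split, 4 with a negative and 5 with a positive log2 fold change, with a median of 0.029 that became -0.038 without WT library 2. CDC6, the ATPase that recruits the helicase with CDT1, stood at 157.6, 159.5 and 176.5 CPM in OE, against 156.6, 114.6 and 163.0 CPM in WT. Apart from WT library 2 the values of the groups lay close together, and the log2 fold change was 0.19 (unadjusted p = 0.204 by edgeR), 0.041 without WT library 2 and 0.28 without WT library 3. CDT1, its partner, whose protein is destroyed once S phase begins, stood at 65.5, 86.2 and 81.8 CPM in OE and at 67.6, 105.5 and 74.6 CPM in WT. Here WT library 2 was the highest, and the log2 fold change was -0.086 (95% confidence interval -0.47 to 0.30). CDC7, the kinase that phosphorylates the loaded helicase, stood at 81.4, 92.0 and 94.3 CPM in OE and at 81.6, 73.1 and 80.6 CPM in WT. OE libraries 2 and 3 lay above all WT libraries while OE library 1 lay inside the WT range, with a log2 fold change of 0.19 (unadjusted p = 0.0912 by edgeR). GINS3 is a subunit of the GINS complex that joins the helicase at firing. It stood at 32.6, 36.8 and 42.8 CPM in OE and at 34.3, 31.7 and 32.6 CPM in WT. Its log2 fold change was 0.19 (unadjusted p = 0.147 by edgeR), 0.073 without OE library 3 and 0.27 without OE library 1. The other 3 GINS subunits had log2 fold changes of 0.029 in GINS1, -0.052 in GINS2 and -0.073 in GINS4, and those of MCM10 and CDC45 were 0.078 and -0.079. The 4 subunits of this complex thus had estimates of both signs, none past the test.

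The clamp and clamp loader genes had a median log2 fold change of -0.018, with 4 negative and 2 positive. That median was 0.013 without OE library 2 and -0.038 without OE library 3. PCNA, the ring that holds the polymerases on DNA, stood at 312.5, 272.2 and 288.3 CPM in OE, against 326.7, 320.3 and 310.4 CPM in WT. Only OE library 1 reached the WT range, just above its lowest value. The log2 fold change was -0.13 (unadjusted p = 0.185 by edgeR). The RFC subunits, which open and load that ring, lay nearer to zero, from -0.030 in RFC4 to 0.083 in RFC5. RFC4 had means of 41.2 ± 2.85 CPM in OE and 42.0 ± 0.290 CPM in WT, and RFC5 of 76.4 ± 3.17 CPM in OE and 72.1 ± 2.08 CPM in WT (SD, n = 3 each).

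The polymerase genes held 2 of the 4 genes at an unadjusted p under 0.05, and both encode a catalytic subunit. POLD1 (ENSG00000062822, chromosome 19, 50384204 to 50418016, GRCh38), the catalytic subunit of polymerase delta, stood at 62.1, 62.9 and 65.0 CPM in OE, against 65.3, 84.4 and 82.2 CPM in WT. The 3 OE libraries lay close together and WT library 1 lay just above them, well below the other two WT libraries. The means were 63.3 ± 1.51 CPM in OE and 77.3 ± 10.4 CPM in WT (SD, n = 3 each), a log2 fold change of -0.29 (SE 0.11, 95% confidence interval -0.54 to -0.04, unadjusted p = 0.0294 and Benjamini-Hochberg adjusted p = 0.93, quasi-likelihood test of edgeR). POLE (ENSG00000177084, chromosome 12, 132623753 to 132687365, GRCh38), the catalytic subunit of polymerase epsilon, stood at 220.5, 220.9 and 233.0 CPM in OE, against 243.8, 266.6 and 266.6 CPM in WT. Again no OE library reached the lowest WT library, and the log2 fold change was -0.20 (SE 0.090, unadjusted p = 0.0480 and adjusted p = 0.93 by the same edgeR test with Benjamini-Hochberg adjustment).

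The catalytic subunit of polymerase alpha, POLA1, did not show this order. It had means of 128.8 ± 3.84 CPM in OE and 126.8 ± 1.85 CPM in WT (SD, n = 3 each) and a log2 fold change of 0.022. Its libraries spanned only 0.085 on the log2 scale, and those of the primase subunit PRIM2 0.083, the narrowest of the 47. The partners of the delta and epsilon subunits had log2 fold changes of -0.12 in POLD2, 0.0091 in POLD3 and -0.0035 in POLE2. POLA2 and the primase catalytic subunit PRIM1 stood at -0.13 and -0.030 on the same scale. The 9 polymerase genes had a median of -0.030, with 6 negative and 3 positive. With single libraries left out the median ran from -0.12 without WT library 1 to -0.028 without WT library 3. With the correction for GC content described further on, all 9 were negative with a median of -0.051.

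LIG1 (ENSG00000105486, chromosome 19, 48115445 to 48170603, GRCh38), the ligase that seals Okazaki fragments, stood at 106.5, 95.2 and 99.6 CPM in OE, against 112.9, 129.4 and 115.1 CPM in WT. All OE libraries lay below all WT libraries. The means were 100.4 ± 5.67 CPM in OE and 119.1 ± 8.98 CPM in WT (SD, n = 3 each), a log2 fold change of -0.25 (SE 0.099, 95% confidence interval -0.47 to -0.03, unadjusted p = 0.0321 and Benjamini-Hochberg adjusted p = 0.93, quasi-likelihood test of edgeR). FEN1, the nuclease that trims the flaps LIG1 then seals, had means of 118.0 ± 13.1 CPM in OE and 119.4 ± 18.2 CPM in WT, a log2 fold change of -0.017. The subunits of RPA, which coats single-stranded DNA, had log2 fold changes of -0.095 in RPA1, 0.078 in RPA2 and 0.12 in RPA3. Of these 5 genes, LIG1 was the only one whose groups did not overlap.

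RRM2, the small subunit of ribonucleotide reductase, the enzyme that makes deoxynucleotides, had the highest log2 fold change of the 47 with all libraries in. It stood at 301.4, 264.3 and 290.2 CPM in OE, against 295.6, 195.3 and 241.4 CPM in WT. WT library 1 lay within the OE range and WT library 2 far below it. The means were 285.3 ± 19.0 CPM in OE and 244.1 ± 50.2 CPM in WT (SD, n = 3 each), a log2 fold change of 0.23 (SE 0.14, 95% confidence interval -0.09 to 0.55, unadjusted p = 0.148 by edgeR). It was 0.087 without WT library 2, where it ranked 6 among the 47, and 0.38 without WT library 1. RRM2 was higher in OE in each of the 3 same-numbered pairs. So were CDC6, ORC2, ORC4, RFC5 and RPA3, while genes such as MCM3 and PCNA were lower in all 3. In a fit blocked on replicate number the log2 fold change of RRM2 was 0.24 (unadjusted p = 0.0281, Benjamini-Hochberg adjusted p = 0.599 by edgeR). In that fit 8.32% of all tested genes had an unadjusted p under 0.05. The large subunit RRM1 stood at -0.062 on the same scale and TYMS, which makes thymidylate, at -0.015. RRM1 and RRM2 thus had estimates of opposite sign, and neither passed the adjusted threshold with or without the block.

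Of the S-phase entry regulators, the transcription factor E2F1 stood at 52.3, 51.9 and 49.5 CPM in OE, against 56.8, 60.2 and 54.5 CPM in WT. No OE library reached a WT library, yet the difference was small, with a log2 fold change of -0.16 (unadjusted p = 0.115 by edgeR). CCNE1, a cyclin that activates CDK2 at the start of S phase, stood at 54.9, 41.2 and 43.8 CPM in OE and at 54.8, 40.3 and 51.7 CPM in WT. Its values paired by library number more than by group, since both libraries 1 were high and both libraries 2 low, and the log2 fold change was -0.070. CCNE2, its close relative, stood at 18.4, 17.2 and 20.0 CPM in OE and at 21.2, 13.6 and 15.6 CPM in WT. WT held both the highest and the lowest value of CCNE2, and the log2 fold change was 0.14 (95% confidence interval -0.24 to 0.53), 0.0095 without WT library 2 and 0.34 without WT library 1.

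The spread among libraries was not even. WT library 2 held the lowest value for 22 of the 47 genes (46.8%), beside 23.3% of all tested genes, and the highest for 9 (19.1%), beside 24.1%. OE library 2 held the lowest value for 13 (27.7%, beside 12.1% of all tested genes) and the highest for 0 (beside 14.7%). WT library 1 held the highest for 11 (23.4%, beside 14.3%) and the lowest for 1. Per role, the median deviation of WT library 2 from the mean of the 6 libraries was -0.22 on the log2 scale for origin recognition and -0.16 for loading and firing, against 0.073 for the helicase. OE library 2 deviated by -0.18 for the helicase and by 0.057 for loading and firing. The widest ranges over the 6 libraries were those of CDT1 at 0.68 and of CCNE2, RRM2 and CDC6 at 0.62 each on the log2 scale, and in all 4 WT library 2 was at an end of the range.

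Base composition moved with these differences. Across the 47 genes, the log2 fold change of OE over WT and the GC content of the longest coding transcript had a Pearson r of -0.67 and a Spearman rho of -0.64, beside -0.14 and -0.25 across 18578 tested genes. The points share the same 6 libraries and are not independent replicates, so no p is given. Leaving out WT library 2 gave a Pearson r of -0.44 across the 47, and leaving out any other library gave -0.54 to -0.73. The 16 genes of highest GC content (50.7% to 65.0%) had a median log2 fold change of -0.12, with 15 negative and 1 positive, beside -0.057 for 7443 tested genes in the same GC range. The 15 genes in the middle had a median of -0.0035, beside 0.032 for all tested genes of that range. The 16 of lowest GC content (36.9% to 43.3%) had a median of 0.026, with 5 negative and 11 positive, beside 0.055. POLD1, LIG1, MCM5, POLE, MCM2 and E2F1 all belong to the GC-rich 16, and of the 5 highest genes ORC2 and CDC7 belong to the GC-poor 16 and RRM2, GINS3 and CDC6 to the middle 15.

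The library deviations moved with GC content, negatively in the OE libraries and WT library 1 and positively in WT libraries 2 and 3. Across the 47 genes the Pearson r between deviation and GC content was -0.42, -0.36 and -0.41 in OE libraries 1 to 3, against -0.26, 0.60 and 0.38 in WT libraries 1 to 3. A correction for a smooth GC trend in each library, chosen after the data were seen, left a Pearson r of -0.35 across the 47 and 0.014 across all tested genes. With it, the log2 fold change was -0.17 for POLD1, -0.20 for LIG1, -0.18 for MCM5, -0.15 for POLE, -0.063 for E2F1 and 0.19 for RRM2. Under this correction 0 of the 47 had an unadjusted p under 0.05 by edgeR, beside 3.87% of all tested genes. Without it there were 4, beside 4.76%. With the correction and the replicate block together, LIG1, MCM5 and PCNA were lower and RRM2 higher in OE at that level, and none passed the adjusted threshold. Of all tested genes 7.42% were at that level in that fit. With the GC correction alone, the medians by GC content were -0.070 for the GC-rich genes, -0.028 for the middle and -0.025 for the GC-poor genes. The part of GC content in the differences between OE and WT was not tested beyond these values.

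**Figure D3:**
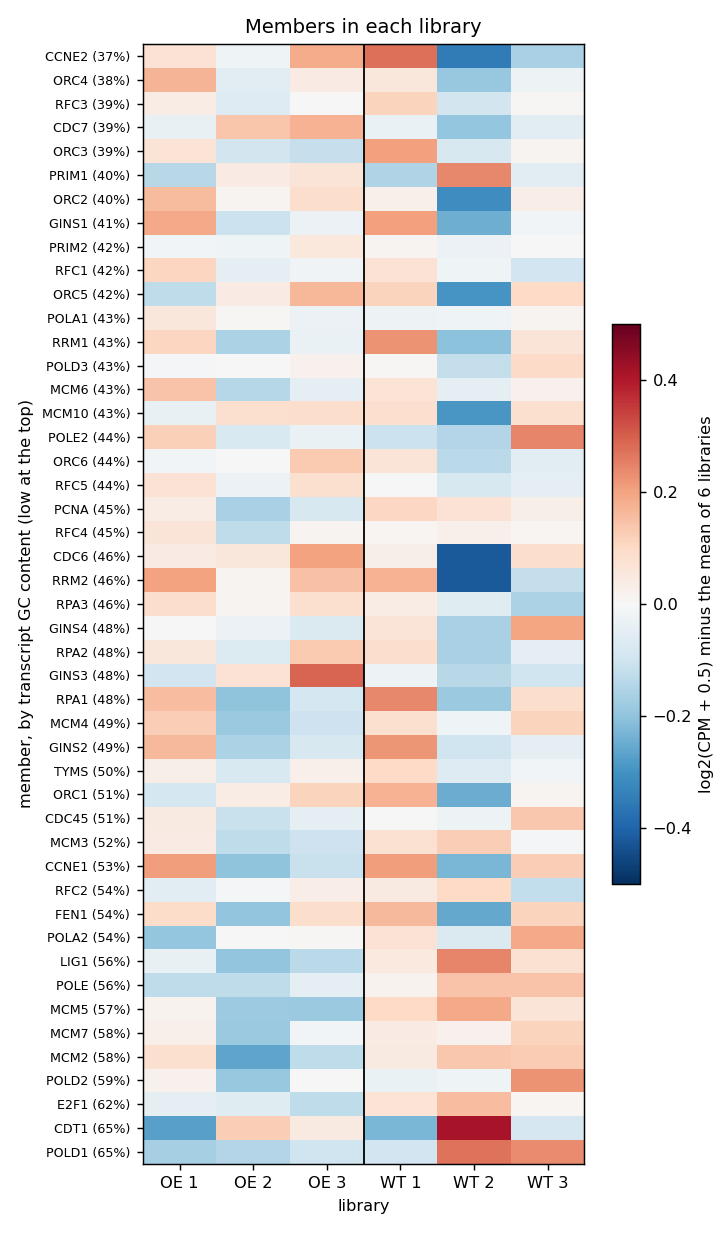
Deviation of each of the 47 genes (rows) in each library (columns, SFXN2 OE left of WT) from its mean over the 6 libraries, on the log2(CPM + 0.5) scale, with rows ordered by transcript GC content from low at the top to high at the bottom. WT library 2 is lowest in colour for RRM2 and CDC6 and highest for CDT1, and most GC-rich rows are above their mean in WT libraries 2 and 3.

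**Figure D4:**
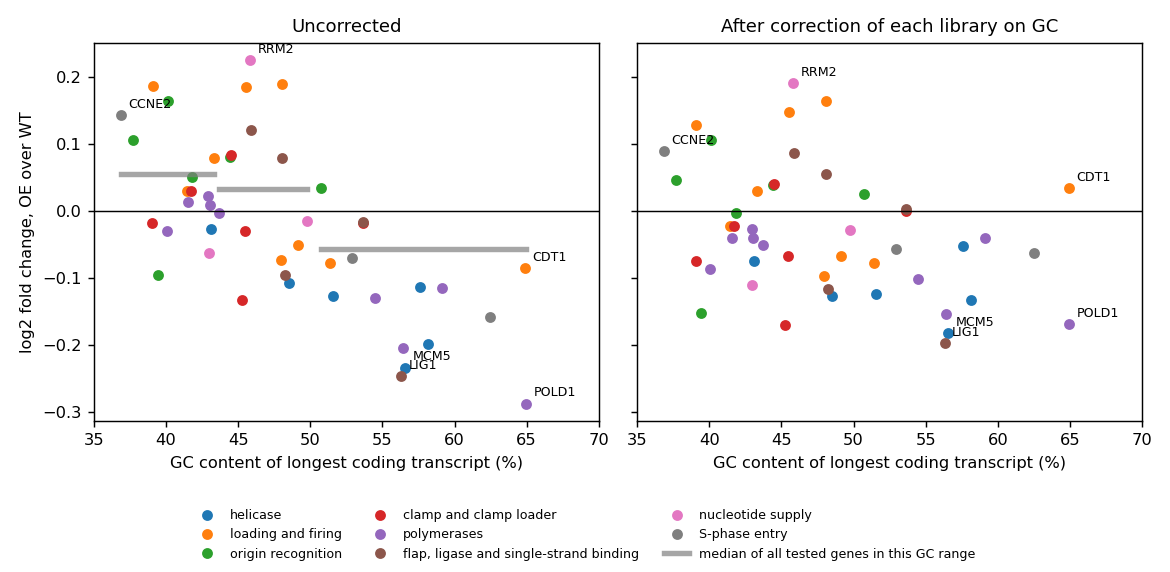
Log2 fold change of SFXN2 OE over WT against GC content of the longest coding transcript in percent, before (left) and after (right) the correction for GC in each library; each point is 1 of the 47 genes, coloured by role, and grey bars are medians of all tested genes in a GC range. The Pearson r across the 47 is -0.67 before the correction and -0.35 after it.

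Expressed per kilobase of exon, PCNA had the highest level of the 47, at 197.8 ± 13.8 CPM per kb in OE and 217.0 ± 5.59 CPM per kb in WT (SD, n = 3 each). MCM7 followed at 140.0 ± 10.6 in OE and 151.5 ± 4.91 in WT and MCM3 at 132.4 ± 8.58 in OE and 144.6 ± 6.64 in WT, and these neighbours overlapped within their spread. TYMS and RRM1 came next, at 88.5 and 61.2 CPM per kb in OE and 89.5 and 63.9 CPM per kb in WT. CCNE2 was the lowest, at 4.22 ± 0.314 CPM per kb in OE and 3.82 ± 0.902 CPM per kb in WT. The same 5 genes led, in the same order, when the length of the longest coding transcript was used.

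Some counts may hold reads of a neighbouring gene, since the library kit does not mark strand. Exons of ENOSF1 on the opposite strand cover 39.1% of the exon length of TYMS, and exons of INTS8 on the opposite strand cover 37.0% of that of CCNE2. Antisense genes on the opposite strand cover 22.7% of MCM2 and 21.2% of GINS4. Annotated read-through or overlapping genes on the same strand, which marking strand would not separate, cover 35.1% of POLA2, 20.2% of RRM2, 14.9% of PRIM1 and 8.64% of POLD1. MCM5, POLE and E2F1 have no overlapping exon in the annotation. The table lists 15 pseudogene copies of the 47 genes, of which 5 had any count, the highest being 9 in 1 library.

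A further 70 genes of replication and its control, such as checkpoint kinases, histone chaperones and other E2F factors, were listed beside the 47, and 0 passed the adjusted threshold by edgeR, DESeq2 or limma-voom. Their median log2 fold change was -0.0014, with 35 negative and 35 positive. At an unadjusted p under 0.05 by edgeR there were 2 with a lower value in OE, RNASEH2C and RECQL4, which is 2.86% beside 2.38% of all tested genes, and 0 with a higher value, beside 2.38%. RNASEH2C, a subunit of ribonuclease H2, stood at 64.3, 52.1 and 58.1 CPM in OE and 74.0, 63.2 and 74.9 CPM in WT, a log2 fold change of -0.28 (unadjusted p = 0.0322 by edgeR). RECQL4, a helicase that takes part in origin firing, stood at 39.5, 46.8 and 46.0 CPM in OE and 42.3, 61.9 and 64.9 CPM in WT, a log2 fold change of -0.35 (unadjusted p = 0.0496 by edgeR), -0.24 without WT library 3 and -0.53 without WT library 1. The groups overlapped in both. CHTF18, a subunit of an alternative clamp loader, had the lowest log2 fold change at -0.53. It was -0.28 without WT library 3 and -0.78 without WT library 1. The highest log2 fold change was 0.24 in EXO1, a repair exonuclease. It was 0.16 without WT library 2 and 0.33 without OE library 1. E2F8 and MCM9 followed at 0.19 each, which were 0.055 and 0.11 without WT library 2, and 0.12 and 0.11 without OE library 3. E2F8 reached 0.27 without OE library 1 and MCM9 0.24 without WT library 1. In a fit blocked on replicate number, EXO1 was higher in OE at an unadjusted p of 0.0416 by edgeR. CHTF18, RECQL4 and RNASEH2C were lower in that fit, at 0.0101, 0.00971 and 0.00622. The adjusted p was 0.599 in each, and 8.32% of all tested genes had an unadjusted p under 0.05. CDKN1B, an inhibitor of cyclin E and CDK2 that was picked out after its values were seen, was the only one of the 70 whose groups did not overlap (1.43%, beside 4.91% of all tested genes with OE above WT), at 49.6, 48.8 and 50.8 CPM in OE and 47.7, 45.6 and 44.9 CPM in WT.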

How the data were processed

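RNA was sequenced from 3 SFXN2 OE and 3 WT libraries, grouped by the genotype label. The authors deposited whole-number counts per gene; per the submitters' processing notes, the build was hg38 and Trim Galore 0.4.4 was among the tools; for the aligner, counter and annotation, names were not given in the sources used here. A deposited table of log2 values was not used. The 47 genes, their roles and the list of 70 further genes were chosen with earlier results of these data known.

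Genes were filtered with filterByExpr (minimum count 10), counts were scaled by TMM and all 18797 genes were fitted together in edgeR 4.0.16 (R 4.3.3; robust quasi-likelihood test, group as the only term, Benjamini-Hochberg adjustment, threshold 0.05). The script was tested on simulated data. CPM (edgeR's cpm) express a count as a share of its library's TMM-scaled total. DESeq2 1.42.0, limma-voom (limma 3.58.1), other scalings and filters, a replicate block, each library left out and a GC correction, the last added after the data were seen, were alternatives. Lengths, GC content and overlaps came from GENCODE 29 on GRCh38, and promoters from RefSeq GRCh38.p14. Confidence intervals come from the edgeR coefficient and its SE. Genes given in full were those at an unadjusted p under 0.05, the 5 highest and 5 lowest log2 fold changes, MCM2 to MCM7, PCNA, E2F1, CCNE1, CCNE2 and RRM2.

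Same-numbered OE and WT libraries deviated together from their group means over 18797 genes (r = 0.276, 0.405 and 0.257 for numbers 1, 2 and 3). Over the 47 genes r was 0.26, 0.413 and 0.0702, so it was weak for number 3. The main fit was not paired. Numbers were taken as pairs only in the fits with a replicate block, from the data and not from a label. The p-values of those fits thus rest on a pairing read from the same counts. Libraries of 1 group differed beyond counting noise (chi-square per degree of freedom of 17.7 or more), and all were kept.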

Additional observations from a re-analysis of the deposited data

How the results depend on the processing

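None of the 47 genes passed the adjusted threshold under any of the 14 alternatives run, the lowest adjusted p being 0.319 (edgeR without OE library 1), and SFXN2 kept its direction and call in all (5.41 to 5.75 with each library left out). The count of all tested genes past the threshold was 2, against 9 with DESeq2, 1 with the replicate block, 1 with the GC correction, 1 with both and 1 to 3 with each library left out. Genes of the 47 at an unadjusted p under 0.05 numbered 4, against 0 with the GC correction and 0 to 5 with each library left out. Shares of all tested genes at that level were 4.76%, 3.87% and 1.59% to 11.8%, in that order. With the GC correction and block the genes of the 47 were LIG1, MCM5 and PCNA (lower) and RRM2 (higher), beside 7.42% of all tested genes. Over pairs, the replicate block gave 4 lower and 1 higher (RRM2), beside 8.32% of all tested genes at that level against 4.76% without it. The median with the block was -0.016, with no call among the 47. Over all tested genes the block took the count past the adjusted threshold from 2 to 1.

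Log2 fold changes near zero turned sign in 21 genes; the cause was not tested. With the GC correction they were 0.034 for CDT1, 0.0022 for FEN1, -0.023 for GINS1, -0.0031 for ORC5, -0.027 for POLA1, -0.041 for POLD3, -0.040 for PRIM2, -0.022 for RFC1 and 0.00028 for RFC2. With the GC correction and block they were 0.044 for CDT1, 0.0086 for FEN1, -0.019 for GINS1, -0.027 for POLA1, -0.037 for POLD3, -0.041 for PRIM2, -0.023 for RFC1 and 0.0041 for RFC2. POLE2 was 0.0040 with the block alone. With each library left out, ranges were -0.21 to 0.011 for CCNE1, -0.22 to 0.13 for CDT1, -0.14 to 0.068 for FEN1, -0.079 to 0.14 for GINS1, -0.15 to 0.046 for GINS2, -0.17 to 0.013 for GINS4, -0.038 to 0.14 for MCM10, -0.11 to 0.029 for MCM6, -0.075 to 0.13 for ORC1, -0.074 to 0.12 for ORC5, -0.0029 to 0.036 for POLA1, -0.048 to 0.061 for POLD3, -0.079 to 0.13 for POLE2, -0.12 to 0.093 for PRIM1, -0.017 to 0.023 for PRIM2, -0.019 to 0.067 for RFC1, -0.082 to 0.028 for RFC2, -0.068 to 0.027 for RFC3, -0.074 to 0.020 for RFC4, -0.17 to 0.033 for RRM1 and -0.052 to 0.025 for TYMS. With each library left out, the median of the 47 ran from -0.074 to 0.0098 and that of the 70 from -0.040 to 0.037. Each range crossed zero. The shifts were below the within-group SD of single-library medians, 0.065 for the 47 and 0.075 for the 70. Leaving out a single library can hardly exceed that bound, so no conclusion is drawn from it. The 47 log2 fold changes lay between -0.29 and 0.23 beside a median SE of 0.107.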
